A study of Mus musculus with 4 samples.

Results

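The genes described here are 42 mouse genes for DNA replication and S phase, taken by symbol from a fixed list of licensing, helicase, polymerase, nucleotide supply, chromatin copying, E2F, cyclin E and checkpoint genes. All 42 were found among the 33641 gene symbols of the data, and all 42 had a value above 0 in each of the 4 libraries. The libraries came from primary cardiac fibroblasts of wild-type C57BL/6J mice aged 12 weeks, 2 from cells given vehicle and 2 from cells given TGFbeta at 10 ng/ml. All cells also took up 4-thiouridine (a uridine analogue that light crosslinks to bound protein) 20 and 4 h before exposure to 368 nm light. The light dose was 200000 uJ per square cm, and the labels give a confluency of 80% for every library. The study design speaks of RNA recovered with HuR, the RNA-binding protein encoded by Elavl1. The sample labels name total RNA as the library input, so the values are given as levels in these libraries. The labels do not say whether the 2 libraries of a group came from separate cultures or animals, and p-values measure only the spread between these samples.

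A cell copies its genome once per cycle. In G1 the origin recognition complex, Cdc6 and Cdt1 load the ring-shaped MCM helicase on DNA, and at the start of S phase the kinase Cdc7 with Dbf4, Mcm10, Cdc45 and the GINS complex switch that helicase on. Transcription factors of the E2F family, released when cyclin-dependent kinases phosphorylate the retinoblastoma protein, drive many of these genes. Resident cardiac fibroblasts divide little in the healthy adult heart and divide in culture and after injury. TGFbeta halts the division of many cell types and turns fibroblasts into matrix-producing myofibroblasts.

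Because these genes are known as targets of E2F, their promoters were searched for E2F letters, namely TTTCCCGC, TTTCGCGC, TTTGCCGC or TTTGGCGC on either strand, in the window around each RefSeq start that the promoter table holds (GRCm38.p6, all windows of the same length). Of the 37 members with an entry, 15 (40.5%) held such letters in at least 1 promoter, against 704 of 27025 genes (2.6%) in the whole promoter table. CCAAT, on either strand, was found for 22 of 37 members (59.5%) and for 41.1% of all genes. TTTGAA, the core of the cell cycle homology element, was found for 8 of 37 members (21.6%) and for 20.2% of all genes. The windows below show where the letters lie, in capitals, for the member of a role with the largest change among those with a match outside annotated exons. They are written 5′ to 3′ on the gene's strand. Mcm5 lies at chr8:75109300-75109423 (plus strand), Pola1 at chrX:93632230-93632349 (minus strand), Uhrf1 at chr17:56304072-56304191 (plus strand) and E2f7 at chr10:110745189-110745304 (plus strand).
Mcm5: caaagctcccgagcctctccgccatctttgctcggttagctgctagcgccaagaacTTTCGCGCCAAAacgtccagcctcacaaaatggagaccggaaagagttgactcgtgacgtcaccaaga
Pola1: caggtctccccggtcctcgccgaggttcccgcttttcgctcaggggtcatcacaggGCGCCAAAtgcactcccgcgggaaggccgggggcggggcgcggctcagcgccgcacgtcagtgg
Uhrf1: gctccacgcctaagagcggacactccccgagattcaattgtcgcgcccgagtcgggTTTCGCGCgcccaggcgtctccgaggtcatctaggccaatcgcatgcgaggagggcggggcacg
E2f7: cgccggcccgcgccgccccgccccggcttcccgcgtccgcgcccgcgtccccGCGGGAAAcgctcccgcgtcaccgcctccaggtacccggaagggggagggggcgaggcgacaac
In Mcm5 a pair of matches on opposite strands overlap, beginning 153 and 149 bases before the start. The single match begins 138 bases before the start in Pola1, 185 before the later of the annotated starts in Uhrf1 and 198 in E2f7. These are matches of letters in a window, and no factor was measured at them here.

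The levels are TPM, a unit of transcript abundance that divides by gene length and scales each library to the same total of 1000000. Read depth is therefore unknown. Of the 4 fixed check genes, limma (an empirical Bayes linear model fitted across all genes) called Wisp1, Postn and Acta2 higher with TGFbeta, with adjusted p = 0.00312, 0.00633 and 0.0293. Elavl1 was at 51.1 and 45.7 TPM with vehicle and 51.2 and 54.7 TPM with TGFbeta (limma adjusted p = 0.621). All 10 markers of cardiac fibroblasts were present, at 55.5 TPM or more in every library. Limma called 2 of the 10 lower and 0 higher: Pdgfra went from 169 and 139 TPM to 55.5 and 57.8 TPM (adjusted p = 0.0106), and Tcf21 from 600.4 and 564 TPM to 283 and 255 TPM (adjusted p = 0.0148). Their part in the levels of the members was not tested. Across the 15815 tested genes (mean TPM of at least 1), the median log2 change was -0.13, and median scaling or quantile normalization moved it to 0.03 and 0.02. The median change of the members is therefore also given relative to that median; changes of single genes are printed as fitted.

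The comparison asks how the level of these genes differs between TGFbeta and vehicle. Uhrf1, which keeps DNA methylation through replication, was the 1 member called lower, 2.12-fold, and no member was called higher. That call was lost after median scaling or quantile normalization, with the replicate number as a block and with every gene above 0 tested. Most of the other members lay somewhat lower with TGFbeta without passing the test, and Tyms, Pcna, Dbf4 and Mcm3 had log2 changes above 0. Of the 42 members, 40 had a mean TPM of at least 1 and were tested; Cdc6 and E2f8 were not. Limma called 1 of 40 lower at an adjusted p under 0.05, where 4.38% of all tested genes were called lower, and 0 of 40 higher, where 1.54% of all genes were. A share of 1 in 40 is no more than the background, so the calls alone set these genes apart from no others. At an unadjusted p under 0.05, 15 members were lower (18.5% of all genes) and 1 was higher (5.98% of all genes). After median scaling the share with both directions pooled was 20% of members and 22.1% of all genes. Log2 changes below 0 were then found for 32 of 40 members and 46.8% of all genes, against 36 of 40 and 64.8% without scaling. In bulk libraries, fewer cells in S phase and less RNA per cell cannot be told apart. Nor can a difference in the RNA recovered with HuR, should the libraries hold such RNA.

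The median log2 change of the 40 tested members was -0.37, which is 0.24 below the median of all tested genes. In 26 of them both TGFbeta libraries lay below both vehicle libraries, as in 39.8% of all tested genes. In 1, Tyms, both lay above, as in 15.5% of all tested genes, and in 13 the libraries overlapped. After median scaling the counts were 21 below (24.7% of all genes) and 3 above (29.3% of all genes), namely Tyms, Mcm3 and Dbf4. The log2 changes of Mcm2, Rrm1, Ccne2 and Chek1 then turned positive, and under quantile normalization that of E2f7 as well. Summed over all 42 members, the level was 569 and 559 TPM with vehicle against 450 and 505 TPM with TGFbeta, or 0.0569%, 0.0559%, 0.045% and 0.0505% of all TPM.

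**Figure D1:**
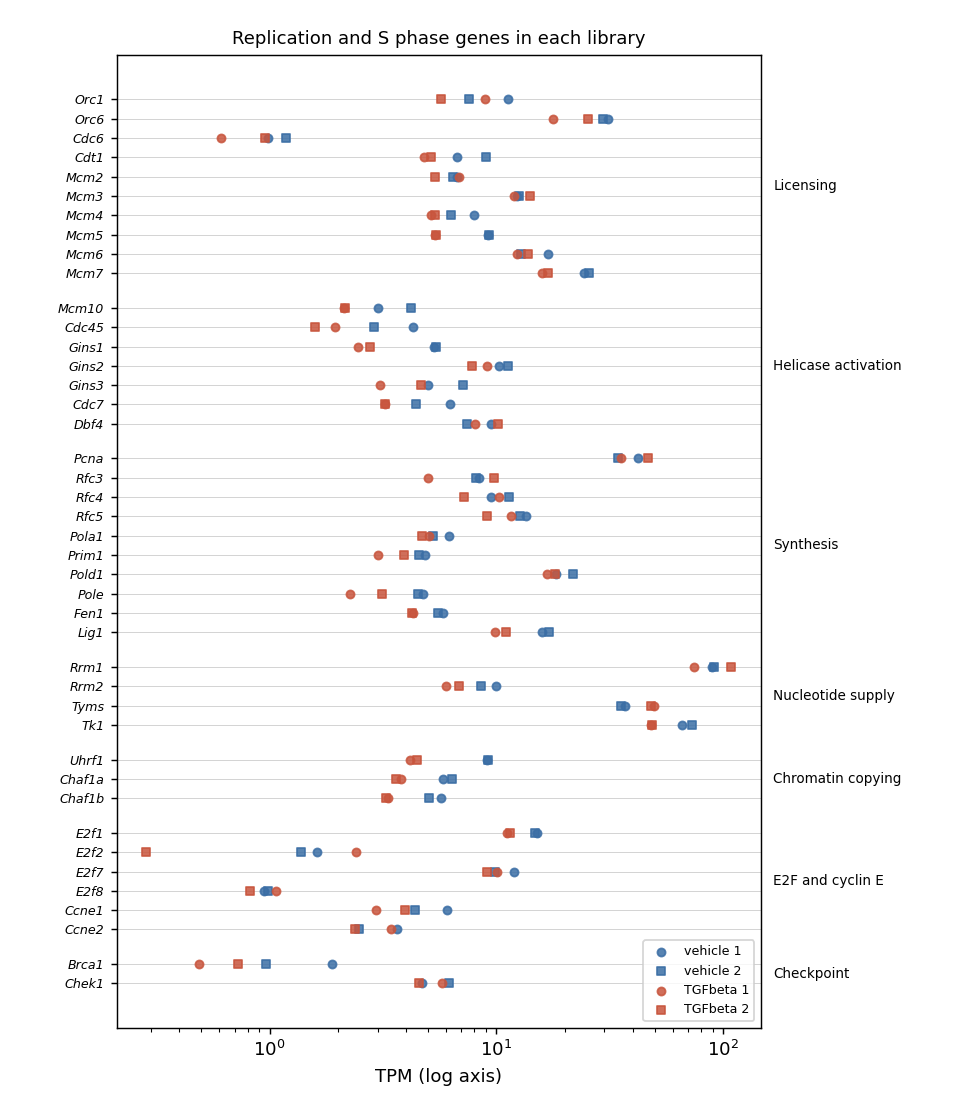
TPM (log axis) of each of the 42 members in each library, by role; blue is vehicle, red is TGFbeta, circles are replicate 1 and squares replicate 2. Uhrf1 and Mcm5 show tight pairs that are well apart, Tyms lies higher with TGFbeta, and E2f2 has its highest and lowest value in the TGFbeta libraries.

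Licensing genes come first in the cycle. Orc1, a subunit that marks origins, was at 11.2 and 7.58 TPM with vehicle and 8.93 and 5.68 TPM with TGFbeta, so the groups overlapped. Orc6, another subunit of the same complex, was at 31.0 and 29.7 TPM with vehicle and 17.8 and 25.3 TPM with TGFbeta, with a log2 change of -0.50 (SE 0.20, limma adjusted p = 0.190). Both TGFbeta libraries were lower for Orc6, but TGFbeta 1 much more so than TGFbeta 2. The loading factor Cdt1 was at 6.74 and 9.04 TPM with vehicle and 4.81 and 5.16 TPM with TGFbeta (log2 change -0.56, limma adjusted p = 0.169). Its partner Cdc6 was near 1 TPM in every library, at 0.984 and 1.18 TPM with vehicle and 0.608 and 0.956 TPM with TGFbeta, and fell short of the mean needed for a test.

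None of the 6 subunits of the MCM ring passed the test, where limma called 4.38% of all tested genes lower and 1.54% higher. Differences among the subunits were not tested. Mcm5 was at 9.23 and 9.32 TPM with vehicle and 5.35 and 5.41 TPM with TGFbeta, a log2 change of -0.69 (SE 0.17, limma adjusted p = 0.0736). Mcm7, the most abundant of the 6, was at 24.3 and 25.8 TPM with vehicle and 15.9 and 16.8 TPM with TGFbeta, a log2 change of -0.58 (SE 0.15, limma adjusted p = 0.0747). For both genes replicates nearly coincided and both TGFbeta libraries lay below both vehicle libraries, as in 39.8% of all tested genes. Even so, the adjusted p of each missed the threshold. Mcm4 was at 8.003 and 6.33 TPM with vehicle and 5.16 and 5.38 TPM with TGFbeta (limma adjusted p = 0.303). The other subunits overlapped between groups: Mcm2 was at 6.68 and 6.45 TPM against 6.83 and 5.36 TPM, and Mcm6 at 16.9 and 12.9 TPM against 12.4 and 13.8 TPM. Mcm3 was at 12.3 and 12.6 TPM with vehicle and 11.9 and 14.1 TPM with TGFbeta, a log2 change of 0.05 with a 95% interval from -0.35 to 0.46. After median scaling both TGFbeta libraries of Mcm3 lay above both vehicle libraries. A ratio of 2 genes within a library is the same whatever constant the library is multiplied by, as in median scaling, but not under quantile normalization. The ratio of Mcm5 to Mcm3, picked after the values were seen, was 0.752 and 0.739 with vehicle and 0.449 and 0.384 with TGFbeta. That ratio was lower in both TGFbeta libraries than in either vehicle library; it was not tested.

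**Figure D2:**
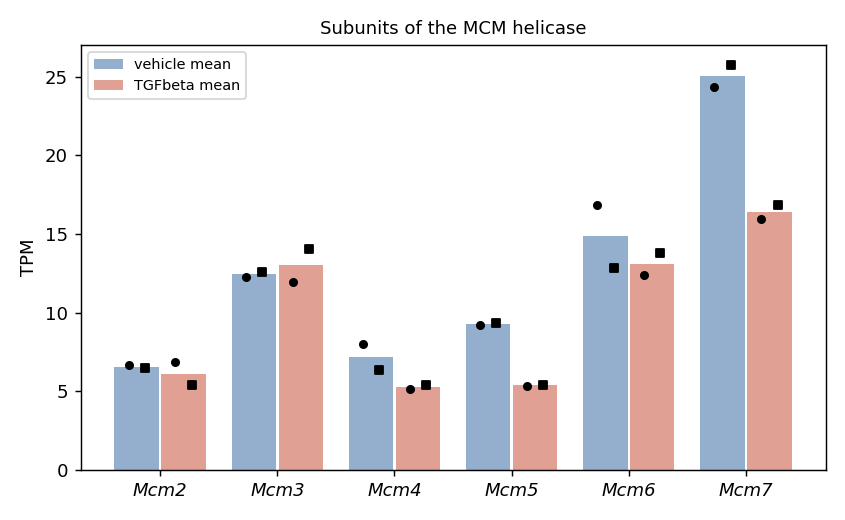
TPM of the 6 MCM helicase subunit genes; bars are means of 2 libraries, circles replicate 1 and squares replicate 2. Mcm5 and Mcm7 are apart between groups, while points of Mcm2, Mcm3 and Mcm6 overlap.

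Of the 7 genes for helicase activation, 6 had log2 changes below 0 (64.8% of all tested genes), and the median was -0.54. In the same 6 both TGFbeta libraries lay below both vehicle libraries, as in 39.8% of all tested genes. After median scaling the groups overlapped for Gins2 and Gins3. Limma called 0 of the 7, where it called 4.38% of all genes lower and 1.54% higher. At an unadjusted p under 0.05, 3 of the 7 were lower, as were 18.5% of all genes. Gins1, a subunit of the GINS complex, was at 5.31 and 5.40 TPM with vehicle and 2.46 and 2.78 TPM with TGFbeta, a log2 change of -0.81 (SE 0.19, limma adjusted p = 0.0653). Cdc45, which joins MCM and GINS in the active helicase, was at 4.31 and 2.89 TPM with vehicle and 1.93 and 1.59 TPM with TGFbeta (log2 change -0.72, limma adjusted p = 0.140). Vehicle means were 2.04 times TGFbeta means for both genes. Gins3 was at 4.98 and 7.12 TPM against 3.07 and 4.65 TPM, and Gins2 at 10.3 and 11.2 TPM against 9.08 and 7.81 TPM. Mcm10, which helps to fire the loaded helicase, was at 3.01 and 4.18 TPM with vehicle and 2.12 and 2.15 TPM with TGFbeta (limma adjusted p = 0.210).

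The kinase Cdc7 was at 6.25 and 4.42 TPM with vehicle and 3.23 and 3.24 TPM with TGFbeta, a log2 change of -0.57 (limma adjusted p = 0.188). Its activating subunit Dbf4 was at 9.52 and 7.46 TPM with vehicle and 8.07 and 10.2 TPM with TGFbeta, a log2 change of 0.09 with a 95% interval from -0.41 to 0.60. Without scaling, the groups were apart for the kinase and overlapped for its activator. After median scaling both TGFbeta libraries of Dbf4 lay above both vehicle libraries.

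Genes for DNA synthesis had a median log2 change of -0.29, and limma called 0 of 10, where it called 4.38% of all genes lower and 1.54% higher. At an unadjusted p under 0.05, 2 of the 10 were lower, a share close to the 18.5% of all genes. Lig1, the ligase that joins Okazaki fragments, was at 15.8 and 17.1 TPM with vehicle and 9.82 and 11.01 TPM with TGFbeta, a log2 change of -0.61 (SE 0.16, limma adjusted p = 0.0842). Pole, the catalytic subunit of the leading strand polymerase, was at 4.73 and 4.50 TPM with vehicle and 2.27 and 3.15 TPM with TGFbeta (log2 change -0.61, limma adjusted p = 0.155). These genes had the lowest log2 changes of the role. Pold1, the lagging strand polymerase, was at 18.3 and 21.9 TPM against 16.8 and 18.1 TPM, and Pola1, which extends primers, at 6.16 and 5.24 TPM against 5.04 and 4.70 TPM. The primase gene Prim1 was at 4.83 and 4.56 TPM with vehicle and 2.997 and 3.93 TPM with TGFbeta. The flap nuclease gene Fen1 was at 5.81 and 5.54 TPM with vehicle and 4.28 and 4.24 TPM with TGFbeta (limma adjusted p = 0.311).

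Pcna, the sliding clamp that holds polymerases on DNA, was the most abundant synthesis gene and overlapped between groups, at 42.2 and 34.5 TPM with vehicle and 35.5 and 46.5 TPM with TGFbeta. The log2 change of Pcna was 0.09, with a 95% interval from -0.37 to 0.55. A pair of annotated pseudogenes of Pcna had at most 0.320 TPM. Among subunits of the loader that places the clamp, Rfc5 was at 13.6 and 12.7 TPM with vehicle and 11.6 and 9.07 TPM with TGFbeta. Rfc4 was at 9.52 and 11.3 TPM against 10.2 and 7.17 TPM, and Rfc3 at 8.37 and 8.12 TPM against 4.97 and 9.73 TPM. For Rfc3 the TGFbeta libraries lay on either side of both vehicle libraries, and its log2 change of -0.21 turned to 0.21 without TGFbeta 1.

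Nucleotide supply held the 3 most abundant members and, without scaling, the 1 member with both TGFbeta libraries above both vehicle libraries. Tyms, thymidylate synthase, was at 36.9 and 35.6 TPM with vehicle and 49.4 and 48.4 TPM with TGFbeta, a log2 change of 0.42 (SE 0.13, limma adjusted p = 0.118). Tk1, the thymidine kinase of the salvage route to the same nucleotide, was at 65.9 and 72.7 TPM with vehicle and 48.0 and 48.4 TPM with TGFbeta, a log2 change of -0.51 (SE 0.13, limma adjusted p = 0.0794). Neither passed the test, and both had groups that did not overlap, in opposite directions. The ratio of Tyms to Tk1, picked after the values were seen, was 0.56 and 0.489 with vehicle and 1.03 and 0.999 with TGFbeta.

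Ribonucleotide reductase makes all deoxyribonucleotides from a large and a small subunit. The large subunit gene Rrm1 was the most abundant member, at 89.4 and 91.4 TPM with vehicle and 74.8 and 109 TPM with TGFbeta. The log2 change of Rrm1 was -0.00289, with a 95% interval from -0.48 to 0.48, so changes within that interval were not excluded. The small subunit gene Rrm2, whose level is known to peak in S phase, was at 9.96 and 8.52 TPM with vehicle and 6.02 and 6.81 TPM with TGFbeta (log2 change -0.46, limma adjusted p = 0.192). Rrm1 exceeded Rrm2 8.97-fold and 10.7-fold in the vehicle libraries and 12.4-fold and 16-fold in the TGFbeta libraries.

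The 3 genes for copying chromatin had a median log2 change of -0.59. Uhrf1 (GRCm38 chromosome 17, 56303321 to 56323486, plus strand) binds half-methylated DNA behind the fork and recruits the methyltransferase Dnmt1. It was at 9.13 and 9.20 TPM with vehicle and 4.18 and 4.47 TPM with TGFbeta (9.16 ± 0.0555 and 4.33 ± 0.203 TPM, mean ± SD, n = 2 each). Uhrf1 thus changed by -0.93 on the log2 scale (SE 0.18, limma adjusted p = 0.0405), and it was lower in 2 of 2 TGFbeta libraries. Uhrf1 did not pass the test once libraries were median scaled (-0.78, limma adjusted p = 0.0604) or quantile normalized (-0.75, limma adjusted p = 0.0691). With the replicate number as a block the limma adjusted p was 0.0726, with every gene above 0 tested it was 0.113, and with each library left out in turn it was 0.139 to 0.224. Dnmt1, no member but part of the wider list of replication genes, fell from 41.5 and 42.3 TPM to 24.6 and 22.6 TPM (log2 change -0.80, limma adjusted p = 0.0328). Chaf1a and Chaf1b encode subunits of the factor that places new histones behind the fork. Chaf1a was at 5.83 and 6.35 TPM with vehicle and 3.80 and 3.62 TPM with TGFbeta (limma adjusted p = 0.121), and Chaf1b at 5.69 and 5.06 TPM against 3.33 and 3.28 TPM (limma adjusted p = 0.140). In all 3 genes both TGFbeta libraries lay below both vehicle libraries, as in 39.8% of all tested genes.

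**Figure D3:**
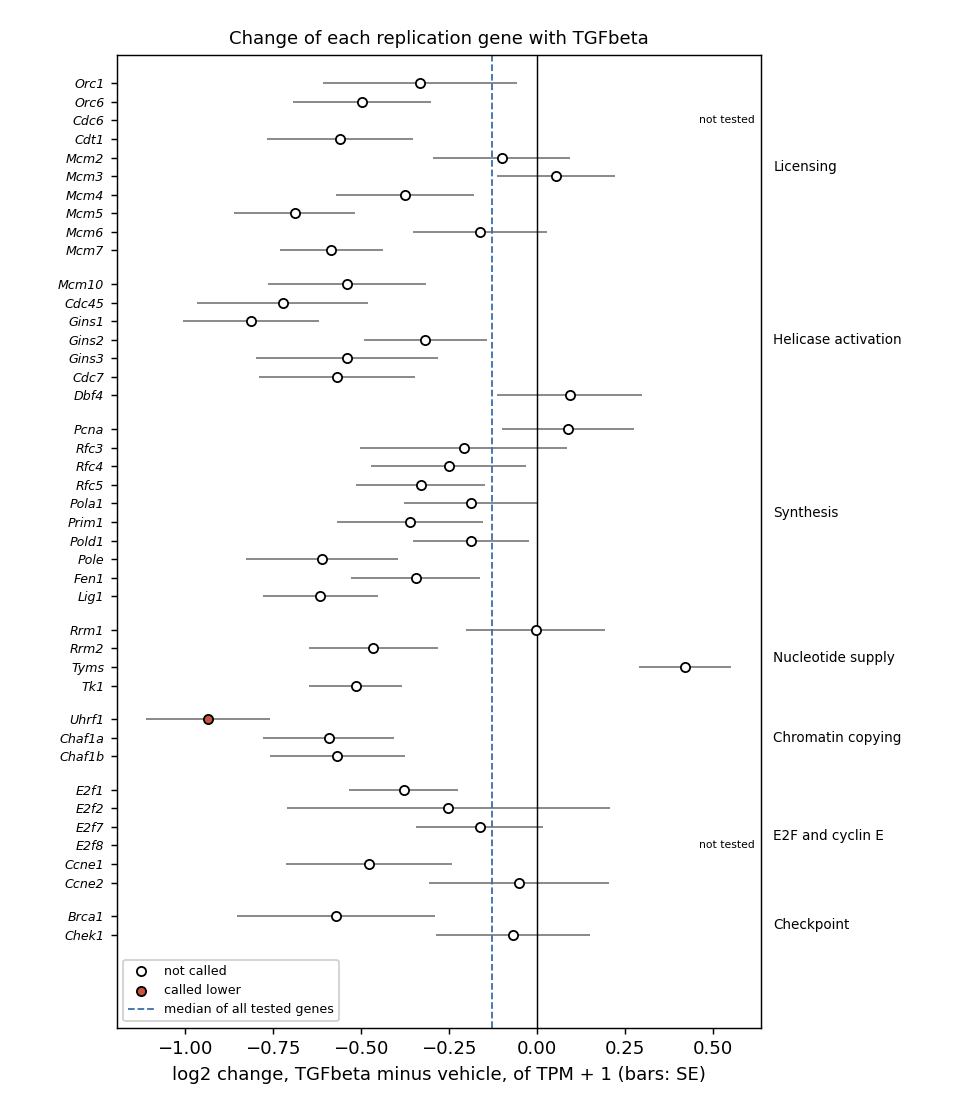
Log2 change, TGFbeta minus vehicle, of TPM + 1 for the 40 tested members, with the SE of the limma fit as bars; the filled point is the 1 called gene, Uhrf1, and the dashed line is the median of all tested genes, -0.13. Most points lie left of the dashed line, and Tyms is farthest to the right at 0.42.

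Among the E2F genes, the activator E2f1 was at 15.2 and 14.9 TPM with vehicle and 11.2 and 11.5 TPM with TGFbeta, a log2 change of -0.38 (SE 0.15, limma adjusted p = 0.203). The atypical repressor E2f7 was at 12.0 and 9.84 TPM against 10.1 and 9.14 TPM, with overlap. E2f2, another activator, was at 1.62 and 1.37 TPM with vehicle and 2.41 and 0.285 TPM with TGFbeta. Its TGFbeta libraries held both the highest and the lowest value, and its log2 change of -0.25 turned to 0.45 without TGFbeta 2. E2f8, the other atypical repressor, was at 0.948 and 0.987 TPM with vehicle and 1.06 and 0.817 TPM with TGFbeta and was not tested.

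Cyclin E, the partner of Cdk2 at the entry to S phase, is encoded by Ccne1 and Ccne2. Ccne1 was at 6.03 and 4.38 TPM with vehicle and 2.95 and 3.95 TPM with TGFbeta (log2 change -0.48, limma adjusted p = 0.278). Ccne2 was at 3.64 and 2.47 TPM with vehicle and 3.43 and 2.39 TPM with TGFbeta, a log2 change of -0.05 with a 95% interval from -0.67 to 0.57. The groups were apart for Ccne1 and overlapped for Ccne2. Of the checkpoint genes, Brca1, which acts in the repair of broken forks, was at 1.89 and 0.964 TPM with vehicle and 0.490 and 0.727 TPM with TGFbeta. Its vehicle mean was 2.35 times the TGFbeta mean, the largest such ratio among the members, but at these low levels limma gave an adjusted p of 0.275. Chek1, the kinase that answers to stalled forks, was at 4.72 and 6.19 TPM against 5.76 and 4.56 TPM, with overlap.

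The log2 changes of members with and without E2F letters in their promoters covered overlapping ranges. The 14 tested members with them, Uhrf1 and Mcm5 included, had a median log2 change of -0.29 (-0.93 to 0.05), and the 21 without them had -0.38 (-0.72 to 0.42). This is a description with no test.

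The remaining genes of the pathway were taken from a list of 63 symbols, of which 62 were in the data and 61 were tested. Of these, 2 fell (4.38% of all genes), 1 rose (1.54% of all genes) and 58 did not pass, and the median log2 change was -0.28. Those that fell were Dnmt1 and Top2a, the topoisomerase that untangles copied DNA, from 36.9 and 28.6 TPM to 16.2 and 16.6 TPM (log2 change -0.95, limma adjusted p = 0.0381). Nme1, a nucleoside diphosphate kinase that makes nucleoside triphosphates, rose from 33.5 and 25.5 TPM to 53.0 and 64.7 TPM (log2 change 0.98, limma adjusted p = 0.0420). Rad51ap1, which acts in recombination, was at -0.81 on the log2 scale and did not pass (limma adjusted p = 0.0856). All 3 calls were lost whichever library was left out, with the replicate block, without an intensity trend and when every gene above 0 was tested.

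Mitosis genes follow replication in the cycle. Of 30 tested, 5 fell and 0 rose by limma, where 4.38% of all genes fell and 1.54% rose. At an unadjusted p under 0.05, 23 were lower (18.5% of all genes), all 30 had log2 changes below 0, (64.8% of all genes), and the median was -0.75, against -0.37 for the members. This difference between lists was not tested. Mki67, a marker of cycling cells, fell from 14.3 and 10.9 TPM to 5.06 and 5.20 TPM (log2 change -1.14, limma adjusted p = 0.0337). Cdc20, an activator of the anaphase-promoting complex, fell by 1.07 (limma adjusted p = 0.0205) and Bub1b, of the spindle checkpoint, by 1.12 (limma adjusted p = 0.0401) on the log2 scale. The summed level of the mitosis genes was 447 and 403 TPM with vehicle and 242 and 244 TPM with TGFbeta. None of the 30 was called once any library was left out, nor with every gene above 0 tested.

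The last lists hold genes that control entry to S phase. Of 12 D cyclins, their kinases and inhibitors, limma called 2 lower and 0 higher (7 at an unadjusted p under 0.05). Of all tested genes it called 4.38% lower and 1.54% higher, and 24.5% had an unadjusted p under 0.05. Ccnd1, the cyclin that starts phosphorylation of the retinoblastoma protein, fell from 30.5 and 38.8 TPM to 8.70 and 11.3 TPM (log2 change -1.70, limma adjusted p = 0.0130). Cdkn1c, an inhibitor of cyclin-dependent kinases, fell from 22.9 and 24.6 TPM to 6.12 and 4.92 TPM (log2 change -1.93, limma adjusted p = 0.00795). An activator and an inhibitor of the cycle were thus both lower. Of the 12 genes 6 had log2 changes above 0, and of the 7 with an unadjusted p under 0.05, 5 were lower and 2 higher. Those 2 were the inhibitors Cdkn1a, at 445 and 521 TPM with vehicle and 647 and 636 TPM with TGFbeta (limma adjusted p = 0.156), and Cdkn2b (log2 change 0.46, limma adjusted p = 0.188), both named after their values were seen. No gene of this list was called without vehicle 1, without vehicle 2 or with every gene above 0 tested, and 1 was called without TGFbeta 1. Cdkn2d, another inhibitor, was at -0.60 on the log2 scale (limma adjusted p = 0.102). Of 15 E2F and Rb regulators limma called 0 (3 at an unadjusted p under 0.05, against 24.5% of all genes). Their median was -0.19, with Foxm1 at -0.69 (limma adjusted p = 0.0786), Rbl2 at -0.60 and Mybl2 at -0.58.

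**Figure D4:**
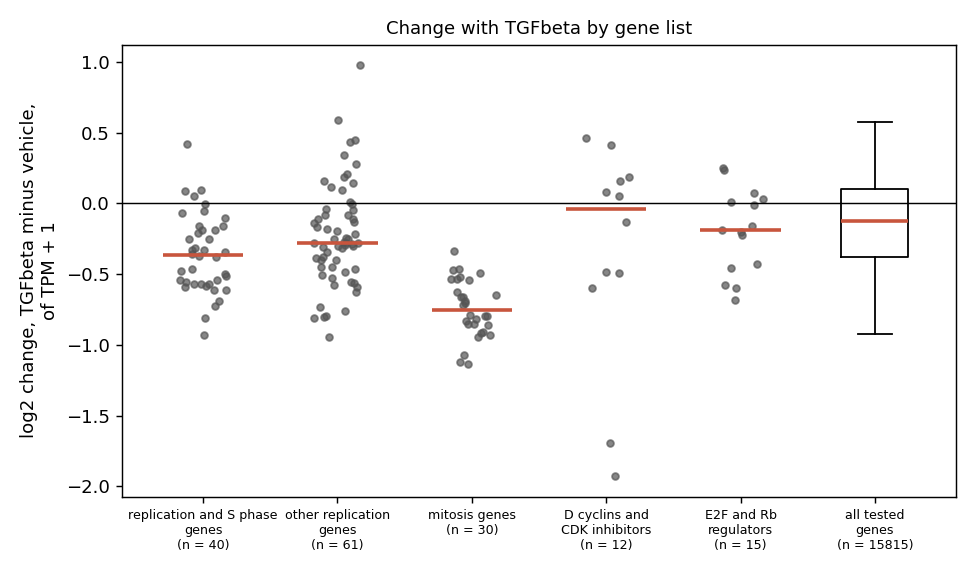
Log2 change, TGFbeta minus vehicle, of TPM + 1 for the members and 4 other lists, each point a tested gene and each red line a median; the box on the right shows the quartiles of all tested genes with whiskers at percentiles 5 and 95. Medians are -0.37 for the members, -0.28 for other replication genes, -0.75 for mitosis genes and -0.13 for all tested genes.

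Markers of other cell types that a heart preparation can hold were measured in the same libraries. Of all tested genes limma called 4.38% lower and 1.54% higher, and 24.5% had an unadjusted p under 0.05. The summed level of 12 macrophage and leukocyte markers was 81.6 and 101 TPM with vehicle and 67.1 and 73.0 TPM with TGFbeta, and limma called 0 of 9 tested (2 at an unadjusted p under 0.05). For 10 endothelial markers it was 83.1 and 87.4 TPM against 71.4 and 68.5 TPM, with 1 of 9 tested, Erg, higher. For 10 cardiomyocyte markers it was 73.5 and 114 TPM against 53.9 and 57.1 TPM, most of it Tnnt2. Myh6 was listed at 0 in TGFbeta 1 and at most 0.394 TPM elsewhere, and Myl7 was listed at 0 in all libraries but TGFbeta 2. For 8 pericyte and smooth muscle markers the sum was 121 and 123 TPM against 81.3 and 84.0 TPM. Of 6 tested, 2 were called lower, Notch3 and Steap4, and 1 higher, Mcam. Notch3, most of the sum with vehicle, went from 74.0 and 83.9 TPM to 21.1 and 17.4 TPM. Log2 changes were above 0 in 4 of the 6, and their median over the 6 was 0.43, opposite in sign to the change of the sum. It was 14.4 and 17.1 TPM against 12.1 and 12.5 TPM for 6 mesothelial markers, and 5.31 and 7.497 TPM against 5.16 and 5.61 TPM, with overlap, for 4 Schwann cell markers. No marker was at 0 in all 4 libraries. The part of these cells in the levels of replication genes was not tested.

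Whether reads were counted by strand is not given in the sources used here. In GENCODE M21, 15 of the 42 members share exon bases with another gene. The shared part is largest for Fen1 (84.2% of exon bases), Gins2 (67.3%) and Chaf1a (52.5%), all with genes on the opposite strand, so their levels may hold reads of those genes. Uhrf1, Mcm5, Gins1 and Tyms share none.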

How the data were processed

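RNA of 4 libraries was sequenced, 2 per treatment. The deposited values are TPM per gene symbol, per the file headers, computed by the authors; each library was checked to sum to 1000000. Which aligner, quantifier and genome the authors used is not given in the sources used here. Since read depth cannot be read from TPM, no counting interval is given.

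Levels were compared as log2(TPM + 1) with limma 3.58.1 in R 4.3.3 (lmFit, eBayes with an intensity trend), two-sided, over the 15815 genes whose mean across libraries reached 1 TPM. Treatment was the only term. P-values were Benjamini-Hochberg adjusted over all tested genes, and an adjusted p under 0.05 was called. Log2 changes are TGFbeta minus vehicle, and 95% intervals come from the same fit. With 2 libraries against 2 an exact permutation test has a smallest p of 0.333 and was not used. The procedure was tested on simulated data with log2 changes larger than that fitted for any member. Whether it recovers smaller changes was not tested.

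Members and lists were chosen with earlier results of these data known. Every member is named; of each other list the 3 tested genes with the largest absolute change are named, and called genes beyond these only where few. Of all other genes only Elavl1, Wisp1, Acta2 and Postn and markers beside a result are named. Positions come from GENCODE M21 and promoters from RefSeq, matched by symbol (37 of 42 members). Pseudocounts of 0.1 and 5, 2 other filters, 2 other scalings, 2 other variance models, a replicate block and leaving out each library were also tried.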

Additional observations from a re-analysis of the deposited data

How the results depend on the processing

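The 13 other settings changed the pseudocount, filter, scaling, variance model, block or libraries. With a mean TPM of at least 5, limma called 1034 of 11463 genes lower. The number of members called lower, 1 as reported, was then 2 of 26 tested (Mcm7 beside Uhrf1, limma adjusted p = 0.0494). It was 0 when every gene above 0 was tested, after quantile normalization, after median scaling and with the replicate block, and 0 to 0 with 1 library left out; limma called no member higher under any setting. At an unadjusted p under 0.05 there were 12 members with every gene above 0 tested, 7 after quantile normalization, 8 after median scaling, 11 with the block and 7 to 10 with 1 library left out, against 16 as reported. As shares, these were 40% of members and 24.5% of all genes as reported. With every gene above 0 tested they were 28.6% and 18.4%, and with the block 27.5% and 20.4%. They were 17.5% and 22.1% after quantile normalization and 20% and 22.1% after median scaling. With both directions pooled, the members' share was then no higher than that of all genes. Log2 changes below 0 were found for 31 of 40 members (48.3% of all genes) after quantile normalization and for 32 (46.8% of all genes) after median scaling. The median log2 change of the members, -0.37, was -0.23 with a pseudocount of 5, -0.28 with a mean TPM of at least 5, -0.18 after quantile normalization and -0.21 after median scaling, and ran from -0.46 (without TGFbeta 2) to -0.32 (without vehicle 1) with 1 library left out. Uhrf1 stayed below 0 under all settings, from -1.07 to -0.60. Leaving out TGFbeta 2 turned the sign of 7 members, vehicle 2 that of 4, and vehicle 1 or TGFbeta 1 that of 2 each.

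Over all genes limma called 692 lower and 244 higher, against 401 and 333 after quantile normalization, 401 and 421 after median scaling, 437 and 165 without an intensity trend and 445 and 186 with the block. It called 0 when every gene above 0 was tested (4348 at an unadjusted p under 0.05) and also without vehicle 1 (3033) or without vehicle 2 (2407), 107 and 64 without TGFbeta 1 and 138 and 65 without TGFbeta 2. Of mitosis genes, 5 as reported, 13 were called lower with a mean TPM of at least 5, 10 in the robust fit, 2 after quantile normalization and 3 with the block. Over all genes, 1034 of 11463 were called lower with that filter and 910 of 15815 in the robust fit. The filter also left fewer mitosis genes in the test. Of other replication genes, 1 in place of 2 was called lower after quantile normalization and after median scaling. The shared replicate numbers were not stated to mark a pairing, and deviations of same-numbered libraries from their group means had r = -0.0539 across tested genes, which are not independent replicates. Median scaling for libraries that do not overlap was chosen after seeing the data. The unknown depth limits statements on members near 1 TPM, such as Brca1, E2f2, E2f8 and Cdc6.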

Other observations

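Replicates of a group are compared here by the median difference, which single genes of opposite sign can cancel. The median log2 difference of vehicle 2 from vehicle 1 was -0.06 over the 40 tested members and -0.06 over all tested genes, and that of TGFbeta 2 from TGFbeta 1 was 0.05 and 0.02, with TGFbeta 2 above TGFbeta 1 in 25 of the 40. The summed level of licensing genes was 127 and 121 TPM with vehicle and 89.7 and 97.9 TPM with TGFbeta, and that of helicase activation genes 43.7 and 42.7 TPM against 30.0 and 32.4 TPM. For chromatin copying it was 20.7 and 20.6 TPM against 11.3 and 11.4 TPM. For nucleotide supply it was 202 and 208 TPM against 178 and 212 TPM, with TGFbeta libraries on either side of vehicle. These sums are descriptions without a test.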
